A study of Bos taurus with 47 samples.

Results

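The 40 genes described here had their 3 highest mean levels, out of 15 tissue labels, in ileum, spleen and lymphocytes of Holstein cattle. They were taken from 24616 Ensembl gene identifiers, of which 20574 were above 0 in at least 1 library. Levels are in FPKM, the number of fragments scaled to each kilobase of a transcript and to each 1000000 fragments of the library. The rule asked that ileum, spleen and lymphocyte be the 3 highest labels by mean FPKM, that the third highest reach 1 FPKM and exceed the fourth by a factor of 4 or more, and that the highest and the second, and the second and the third, be less than 4-fold apart. For 1672 identifiers these were the 3 highest labels, for 1458 of them the third was at least 1 FPKM, and 1384 of those also kept the limit between neighbours. The 4-fold step to the fourth label left 40. A further 5 identifiers passed that step but broke the limit between neighbours.

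RNA sequencing covered 47 libraries. Ileum, spleen, lung, liver, kidney, heart, muscle, rumen, adipose tissue and frontal cortex came from the same 4 animals, called male A, male B, cow C and cow D here. Their ileum libraries are titled ILEU3770, ILEU3773, ILEU3842 and ILEU3886, in that order. Ovary and uterus came from both cows, the lactating mammary gland from cow C and the dry mammary gland from cow D. The lymphocyte library came from a further male, male E (title LYMP4254), so that label has no replicate and shares no animal with the others. The labels give no age, treatment or genotype, and with 2 animals of each sex the sexes cannot be told apart from anything else in which these animals differed. Summed FPKM over all genes was 576130 to 964931 per library. Read counts were not used here, so the depth is unknown.

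The wall of the ileum holds Peyer's patches, clusters of lymphoid follicles rich in B cells, and in ruminants the ileal Peyer's patch is also a place where B cells multiply early in life. The spleen holds lymphocytes in its white pulp, in B cell follicles and T cell sheaths around small arteries. Lymphocytes also travel through blood and lymph and lie scattered in most organs, the lung among them. In RNA from whole tissue, fewer cells of a type and less RNA per cell cannot be told apart. The authors' table lists identifiers without gene names, and 0 of them could be matched to one, so the tissue labels could not be checked against marker genes and the function of the 40 genes is not stated. The genes are called member 1 to member 40, from the highest to the lowest mean over ileum, spleen and lymphocyte. Identifiers are given for 4 of them.

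The levels that chose the members are given as a description. The mean over the 3 labels ran from 2.28 FPKM in member 40 to 410.4 FPKM in member 1, with a median of 21.4. The median level of the 40 genes was 20.9 FPKM in ileum, 17.7 in spleen and 27.2 in lymphocytes. The third highest label exceeded the fourth by a median ratio of 4.83, and by 21.4 in member 8. Most members therefore lay close to the 4-fold limit. Just inside it were member 16, with 25.2 FPKM in spleen against 6.31 in lung (a ratio of 4.00), and member 39, with 1.57 FPKM in ileum against 0.391 in the lactating gland (4.02). Just outside were a gene with 72.5 FPKM in ileum against 18.4 in the dry mammary gland (3.94) and a gene with 16.6 FPKM in ileum against 4.23 in adipose tissue (3.92).

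Together the members took up 0.405% of the summed FPKM of the lymphocyte library, 0.220% to 0.263% of the 4 spleen libraries and 0.101% to 0.370% of the 4 ileum libraries. Their mean level on the log2(FPKM + 1) scale was 4.96 in lymphocytes, 4.29 ± 0.09 (SD, n = 4) in spleen and 4.09 ± 0.71 (SD, n = 4) in ileum. Lung followed with 1.82 ± 0.29 (SD, n = 4) and the dry mammary gland with 1.45. Muscle was lowest with 0.13 ± 0.03 (SD, n = 4). In the plot of mean level by library, the 4 spleen libraries lay together while the 4 ileum libraries were spread out. The means of ileum and spleen differed by less than the spread among the ileum libraries. Single libraries overlapped more than the label means do: in 30 of the 40 members all 9 libraries of the 3 labels were above all 38 others, and in the remaining 10 they were not. The same held for 1.19% of the 20574 identifiers above 0 and for 14.7% of the 1672 with these 3 highest labels. The rule used these values, so nothing is read from the count. In 9 of the 10 members with overlap the lowest of the 9 libraries was the ileum of cow C.

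**Figure D1:**
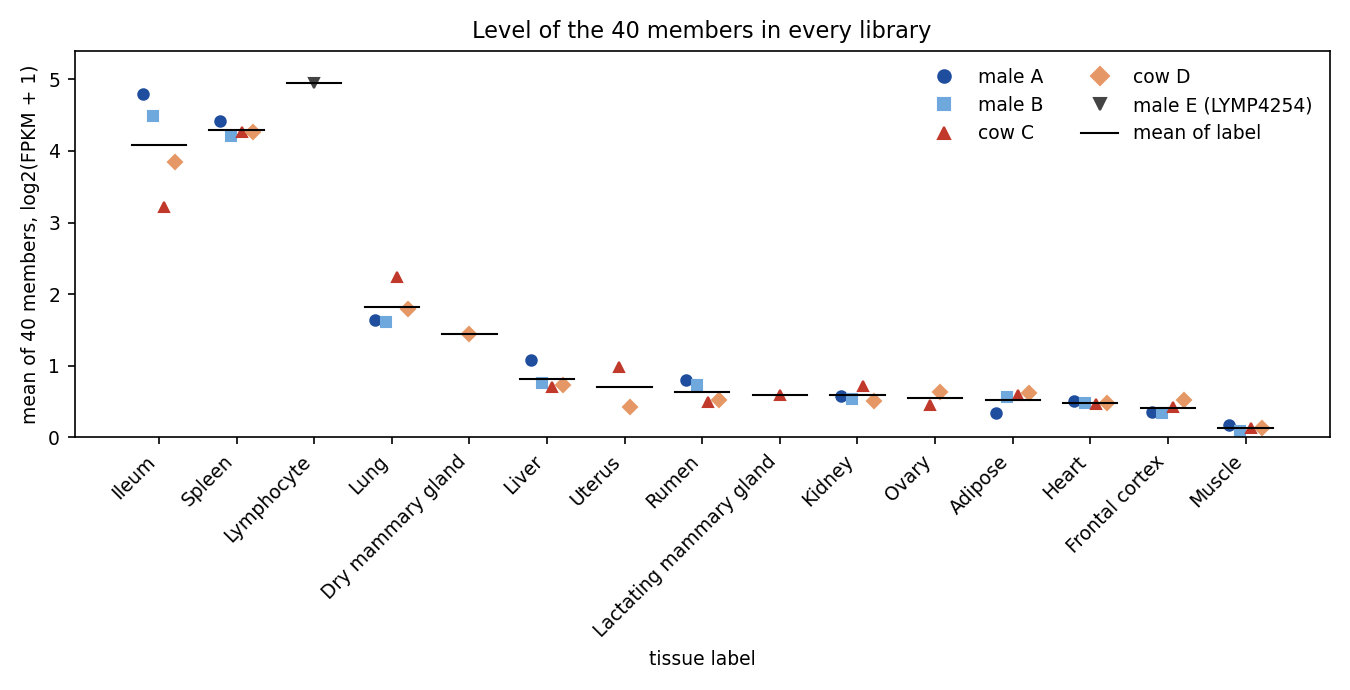
Mean level of the 40 members in each of 47 libraries, on the log2(FPKM + 1) scale, by tissue label. Each point is 1 library, its shape and colour give the animal, and the bar is the mean of the label. The spleen libraries lie between 4.21 and 4.42, the ileum libraries between 3.21 and 4.80, the lymphocyte library lies at 4.96, and no library outside these 3 labels exceeds 2.25.

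The order of the 3 labels varied among members. Lymphocyte was highest in 25 members, followed by spleen and then ileum in 18 and by ileum and then spleen in 7. Ileum was highest in 10 members and spleen in 5. The ratio of lymphocyte to spleen had a median of 1.73 and ran from 0.413 to 4.74, and that of lymphocyte to ileum had a median of 1.79 and ran from 0.168 to 11.6. These orders rest on 1 lymphocyte library, and their spread between animals was not tested.

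The 10 members with the highest levels showed how different the profiles were. Member 1 had 587.8, 458.4, 779.3 and 838.1 FPKM in the spleens of male A, male B, cow C and cow D, in that order, 470.6, 149.2, 116.4 and 365.6 FPKM in their ilea, and 289.7 FPKM in lymphocytes. It was higher in every spleen than in the ileum of the same animal, although the ileum of male A reached the level of the lowest spleen. Without member 1, which made up 29.0% to 42.0% of the members' summed FPKM in the spleen libraries, the sum was 1979, 1619, 559 and 850 FPKM in ileum and 1305, 1122, 1241 and 1158 FPKM in spleen. The ileum libraries still spanned a wider range than the spleen libraries. Member 2 was the most widely found of these: it had 269.9, 224.7, 93.6 and 162.4 FPKM in ileum, between 202.7 and 230.4 in spleen and 514.9 in lymphocytes, and it was the member with the highest muscle mean, 1.63 FPKM. Member 7 was an ileum gene in males, with 195.7 and 194.0 FPKM there against 15.7 and 37.7 in the cows, 34.8 to 55.7 in spleen and 18.6 in lymphocytes. Member 4 had 127.5, 40.3, 28.7 and 40.8 FPKM in ileum, a profile set apart by male A alone.

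Outside the 3 labels, lung was the fourth label of 28 members and the dry mammary gland of 8. Heart, the lactating gland, frontal cortex and rumen took this place for 1 member each. The mean was at least 1 FPKM for 28 members in lung, 27 in the dry mammary gland, 12 in liver, 10 in rumen and 1 in muscle. The lactating gland, from the other cow, held 6 such members against the 27 of the dry gland. The 2 glands are 1 library each, so this difference has no replicate check. In the heat map of all libraries, the row of member 1 stands out by its kidney and liver values of male A, 66.1 and 33.1 FPKM.

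**Figure D2:**
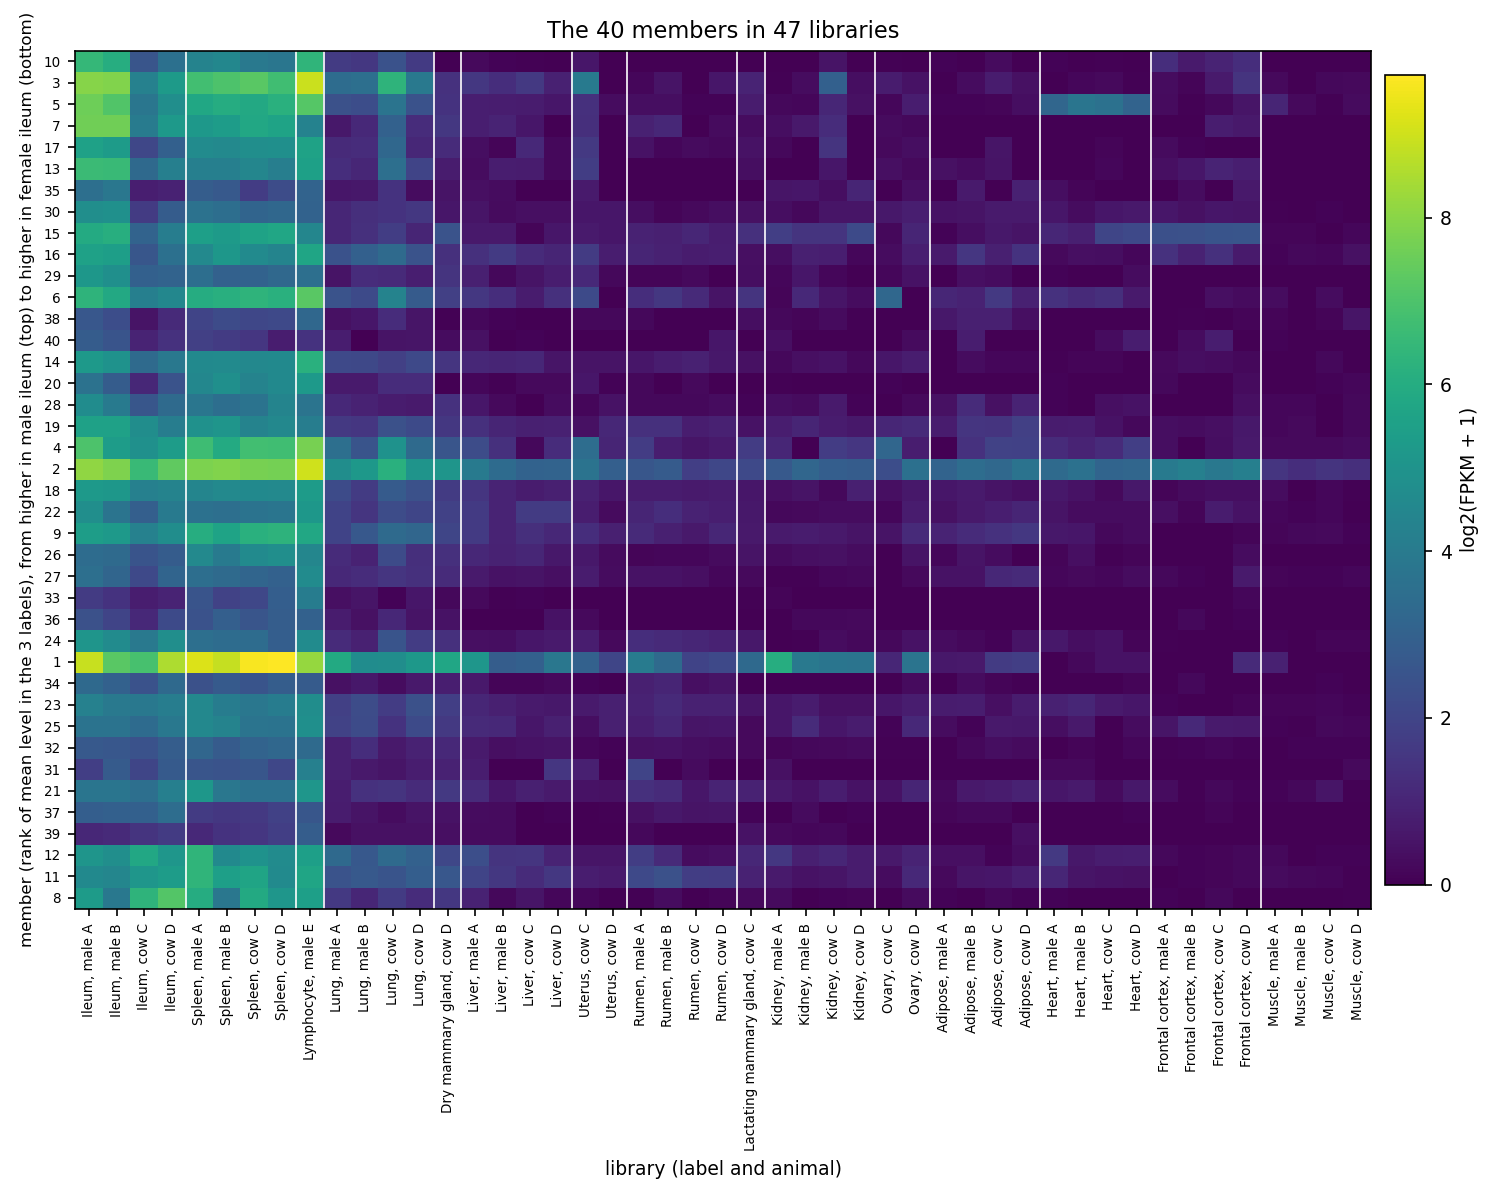
Level of each member (rows) in each of 47 libraries (columns), as log2(FPKM + 1) on the colour scale, with white lines between tissue labels. Rows run from members higher in male ileum at the top to members higher in female ileum at the bottom. The upper rows are darker in the ileum of cows C and D than in the spleen of the same cows.

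Lung was set against adipose tissue, frontal cortex, heart, kidney, liver, muscle and rumen of the same 4 animals. The rule used the lung mean as a limit, and the filter of at least 1 FPKM in at least 2 libraries was passed by 32 members, 24 of them without the help of the lung libraries, so nothing is read from the count. Of these 32, 23 were called higher in lung (a log2 difference of 1 or more), where 26.0% of all genes tested were, and 0 were called lower, where 7.40% of all genes were (limma, 31 higher and 0 lower at an unadjusted p under 0.05). The differences ran from 0.20 in member 15 to 3.75 in member 3, with a median of 1.40 against 0.44 over all genes tested. Member 1 followed with 3.29 and member 4 with 2.68. With all libraries forced to the same distribution (quantile normalization) the count became 13, and the median over all genes -0.12.

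Ileum and spleen differed in few members. The rule limits how far these labels can lie apart, so the counts are a description. Of 40 members 2 were called higher in ileum (14.4% of all genes tested) and 5 higher in spleen (6.63%), again with a log2 difference of 1 or more (limma), and the median difference, ileum minus spleen, was -0.21 against 0.06 over all genes. The members' median became 0.03 without cow C, -0.07 with libraries rescaled to 1 sum and -0.39 under quantile normalization, so its sign rests on that cow. In the 2 members called higher in ileum all ileum libraries were above all spleen libraries (24.0% of all genes), and in 5 all spleen libraries were above all ileum libraries (14.8%), namely in members 9, 20, 26 and 33, which were also called, and in member 36, which was not. The pair higher in ileum were member 37, with 6.47, 6.83, 6.94 and 9.95 FPKM in ileum against 1.99 to 2.66 in spleen (difference 1.39 ± 0.17, SE), and member 24, with 14.3 to 32.7 FPKM against 6.45 to 10.8 (1.30 ± 0.26). Member 20 lay furthest the other way, with 11.8, 6.09, 1.14 and 4.63 FPKM in ileum against 19.4 to 27.9 in spleen (-2.05 ± 0.46). Members 26, 1, 33 and 9 were also called higher in spleen, member 1 with overlap between the organs. The count of 5 became 8 without male A, 3 without cow C and 2 without cow D.

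The members' levels were spread more widely over the 4 ilea than over the 4 spleens. The coefficient of variation over the 4 ileum libraries had a median of 57.7% over the members, against 24.8% over 12745 genes in the same range of ileum levels, and 19 members lay above the 90th percentile of those genes, 58.5%. In spleen the members' median was 19.0% against 14.3% over 11642 genes, and 7 members lay above the 90th percentile of those genes. In lung it was 42.1% against 21.8% over 12150 genes, with 13 members above the 90th percentile, so a wide spread was not limited to ileum. Summed over the members, the ileum of male A had 2450 FPKM, that of male B had 1769, that of cow C had 675 and that of cow D had 1215. The spleens of the same animals had 1892, 1581, 2020 and 1996 FPKM. The ileum of cow C was the lowest of the 4 for 33 members, 82.5% of them, where this library was the lowest for 59.8% of all genes present in ileum. The ileum of male A was the highest for 28 members (70%), where it was the highest for 41.5% of all genes present in ileum.

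Males and cows were compared within the ileum, which asks whether the members' level in this organ went with the sex of the animal. In 25 of 40 members (62.5%) the level was higher in males and in 2 (5%) higher in cows, where 15.3% of 16503 genes tested were called higher and 9.02% lower (limma over 40 libraries, adjusted p threshold 0.05). The median difference, male minus female, was 0.95 on the log2(FPKM + 1) scale over the members and 0.14 over all genes tested. The rule keeps the members low in most tissues of this fit, which can lower their pooled spread. Whether this made them easier to call than other genes was not tested. The members also moved together: the ileum of cow D was above that of cow C in 38 of 40, and that of male A above that of male B in 33. The count of 25 is therefore not 25 separate results. Both males were above both cows in 24 members (37.4% of all genes present in ileum) and both cows above both males in 5 (20.6%). Without male A the count of 25 fell, as did that over all genes tested, and no member was newly called. The median difference was then 0.78 over the members and 0.10 over all genes. With a pseudocount of 0.1 the count became 15, where 2021 of 16503 genes tested were called higher. In a fit of the ileum and spleen libraries alone it became 19, where 860 of 14194 genes were. The smallest adjusted p among the members was then 0.004841 (limma). Since the rule used the ileum mean over both sexes, a gene high in only 1 sex could enter the list. A list of 113 genes chosen by the same limits with the ileum libraries left out, made after the data were seen and sharing 39 members, had 48 genes (42.5%) called higher in males and 7 (6.20%) higher in cows, with a median difference of 0.52. The shared members bring many of these calls. Genes of that list outside the members were not counted apart, so it is no separate support.

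ENSBTAG00000012498, which is member 10, showed the largest difference. Its level was 87.6 and 65.4 FPKM in the ilea of males A and B and 4.90 and 11.0 FPKM in those of cows C and D. Both males were far above both cows, by 3.19 ± 0.25 on the log2 scale (SE, limma adjusted p = 2.547e-09). This SE and p rest on a spread pooled over 10 tissues, and the gene was at 0 in 20 of the 38 libraries outside the 3 labels. They do not measure the spread between animals in ileum. The same limit holds for the sex differences of the members that follow. In spleen the same animals had 19.2, 21.3, 14.3 and 12.9 FPKM, a difference of 0.54 ± 0.25 (adjusted p = 0.4278), and lymphocytes had 80.3 FPKM.

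ENSBTAG00000044204, member 3, had 248.6 and 230.8 FPKM in the ilea of the males and 18.2 and 38.1 FPKM in those of the cows. The groups did not overlap, and the difference was 3.14 ± 0.59 (SE, limma adjusted p = 3.085e-04). Without male A the adjusted p became 0.0588, with a difference of 3.08. Its spleen levels of 107.2, 127.9, 148.3 and 104.4 FPKM showed no such order, with a difference of -0.09 ± 0.59. Member 5 came next, with 189.1 and 132.7 FPKM in males and 13.2 and 26.5 FPKM in cows (3.01 ± 0.33). In members 10, 3 and 5 alike, the ileum of cow C was the lowest library of the 9.

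The 2 members called higher in cows were ENSBTAG00000047632 and ENSBTAG00000009558, members 8 and 39. ENSBTAG00000047632 had 39.1 and 13.7 FPKM in the ilea of males A and B and 79.1 and 139.0 FPKM in those of cows C and D, without overlap, and the difference was -2.13 ± 0.45 (SE, limma adjusted p = 0.001116). Its spleen levels, 63.4, 13.3, 58.2 and 33.6 FPKM, did overlap. ENSBTAG00000009558 had 1.12 and 1.23 FPKM in males and 1.73 and 2.20 FPKM in cows (-0.44 ± 0.12, limma adjusted p = 0.0104). This was a small difference at a low level, and in spleen the gene had 1.15, 1.69, 1.91 and 2.44 FPKM, again with both males below both cows (-0.40 ± 0.12, adjusted p = 0.1504). Both calls ended without cow D (differences -1.72 and -0.33, adjusted p = 0.06277 and 0.08753) and in the fit of the ileum and spleen libraries alone (0.09756 and 0.2343). That of member 39 also ended without male A (0.1582), without male B (0.05556) and with a pseudocount of 0.1 (0.3346).

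In spleen, 0 of the 40 members were called in either direction, where 0.594% of all genes tested were higher in males and 0.430% lower (limma). At an unadjusted p under 0.05, 7 were higher and 2 lower, and the smallest adjusted p was 0.1504. The median difference over the members was -0.05 against 0.05 over all genes. Both males were above both cows in 11 members (34.3% of all genes present in spleen) and below in 11 (15.7%). Leaving out male B gave 2 members called higher in males, and leaving out male A gave 1 called lower.

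The difference between the organs was tested directly, as the male minus female difference in ileum less that in spleen. It was above 0 and called in 20 members (5.22% of all genes tested) and below 0 and called in 1 (5.79%), with a median of 1.002 over the members and 0.07 over all genes (limma over 40 libraries, adjusted p threshold 0.05). The largest values were 3.40 ± 0.56 in member 7, 3.22 ± 0.83 in member 3 and 3.12 ± 0.47 in member 5. Member 10 had 2.64 ± 0.36 (adjusted p = 3.32e-05). The member below 0 was member 11, with 23.3, 20.8, 32.9 and 40.6 FPKM in ileum against 80.8, 43.4, 50.1 and 24.1 FPKM in spleen (-1.46 ± 0.38, adjusted p = 0.01312). These calls depend on the spread estimated from all 10 tissues: in a fit of the ileum and spleen libraries alone, 0 of the members and 0 of all genes were called, with 19 members above 0 and 1 below at an unadjusted p under 0.05 and a smallest adjusted p of 0.06523. The count of 20 fell without male A, male B or cow C, and so did the count over all genes. The members' median was then 0.85, 1.10 and 0.96, in that order, and that over all genes 0.05, 0.08 and -0.03. With a pseudocount of 0.1 the count became 4, where 404 of 16503 genes tested were called above 0.

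**Figure D3:**
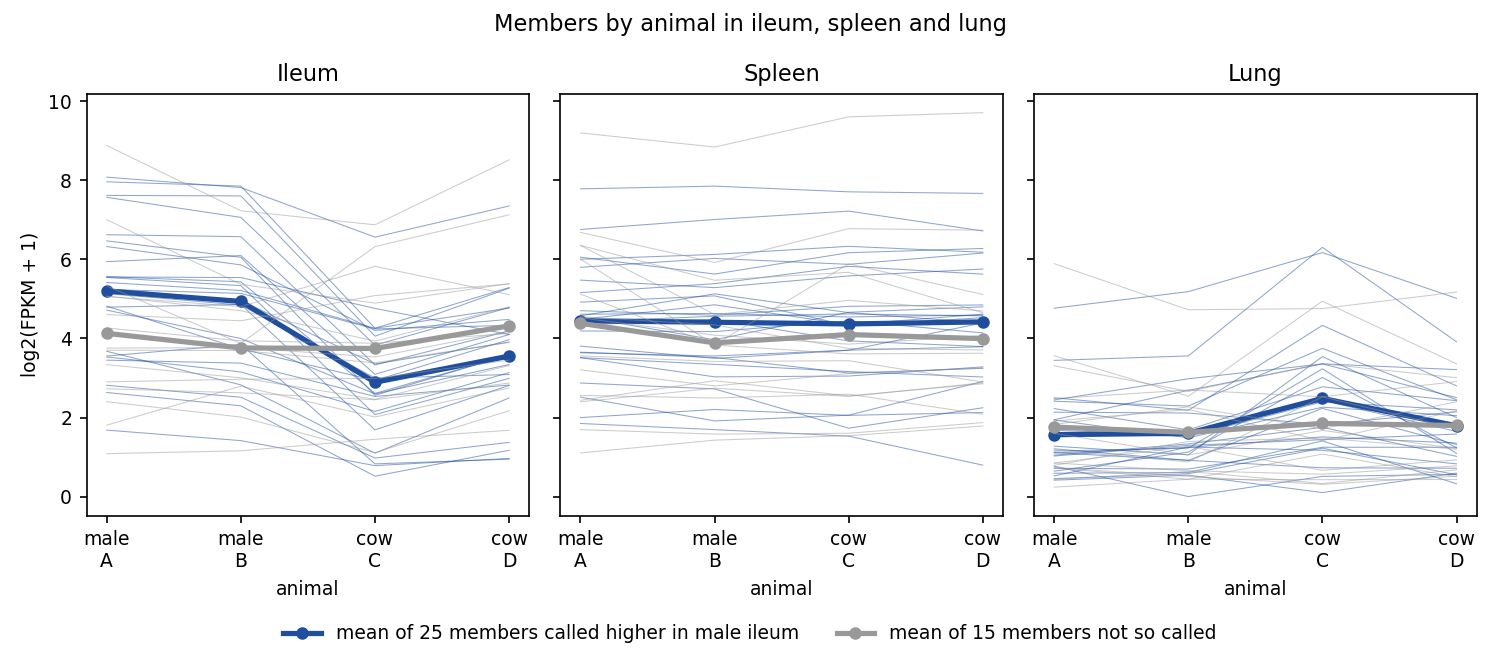
Level of each member, as log2(FPKM + 1), by animal in ileum, spleen and lung (thin lines), with the mean of the 25 members called higher in male ileum (blue) and of the other 15 (grey). The blue mean runs from 5.20 and 4.94 in the males to 2.89 and 3.55 in the cows in ileum, stays between 4.37 and 4.45 in spleen, and is highest in the lung of cow C with 2.48.

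The 25 members called higher in male ileum were described as a group in the other libraries. Their median level in ileum was 37.4, 34.3, 6.66 and 11.0 FPKM in males A and B and cows C and D, and in spleen 21.4, 22.6, 20.8 and 22.0 FPKM. The ratio of the male to the female mean had a median of 4.22 in ileum, from 1.64 in member 27 to 14.2 in member 35, and 0.930 in spleen. These genes were chosen by the difference in ileum, so its size there is a description and nothing is read from the contrast with spleen.

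In lung, the animals stood in another order. The lung of cow C, whose ileum was the lowest, was the highest of the 4 lungs for 25 of the 40 members (62.5%), where it was the highest for 31.7% of all genes present in lung. It was the highest for 19 of the 25 members called higher in male ileum and for 6 of the other 15. Member 3 had 9.90, 10.8, 78.1 and 14.1 FPKM in the lungs of males A and B and cows C and D, member 6 had 4.65, 3.53, 19.1 and 5.96, and member 7 had 0.560, 1.18, 7.07 and 1.35. In each, 1 lung stood far above the rest. On the log2 scale the mean of the 25 members was 1.57, 1.60, 2.48 and 1.79 in these lungs, and that of the other 15 was 1.76, 1.62, 1.85 and 1.80.

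Across the 40 members, the male minus female difference in ileum and the excess of the lung of cow C over the mean of the other lungs had a Pearson r of 0.601 and a Spearman rho of 0.62. Over 16503 genes tested the values were 0.0257 and 0.0281. Those genes were not matched to the members for level. The log2(FPKM + 1) scale understates the differences of low genes in every organ, and its part in the correlations given here was not tested. The 2 measures share cow C as an animal but no library. With cow D as the only female in ileum, r was 0.595 and rho 0.638 over the members, and 0.0855 and 0.109 over all genes. The difference in ileum and that in spleen had an r of 0.0173 and a rho of -0.03 over the members, and 0.147 and 0.159 over all genes. The uterus gave a further pair from the cows: 20 of the 25 members and 11 of the other 15 were higher in the uterus of cow C than in that of cow D, 31 of 40 in all, where 47.2% of the genes tested were. Most of these levels were low, with a members' median of 0.621 FPKM in cow C and 0.200 in cow D. Only 12 members reached 1 FPKM in the uterus of cow C and 4 in that of cow D, so many of these orders rest on small values. The excess in uterus went with that in lung across the 40 members with r = 0.789 and rho = 0.694 (0.161 and 0.15 over all genes). Members 3, 6 and 7, at 15.1, 3.56 and 1.51 FPKM in the uterus of cow C, were listed at 0 in that of cow D. These are descriptions over genes that share libraries, genes are not replicates, and each organ of cow C is 1 library.

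**Figure D4:**
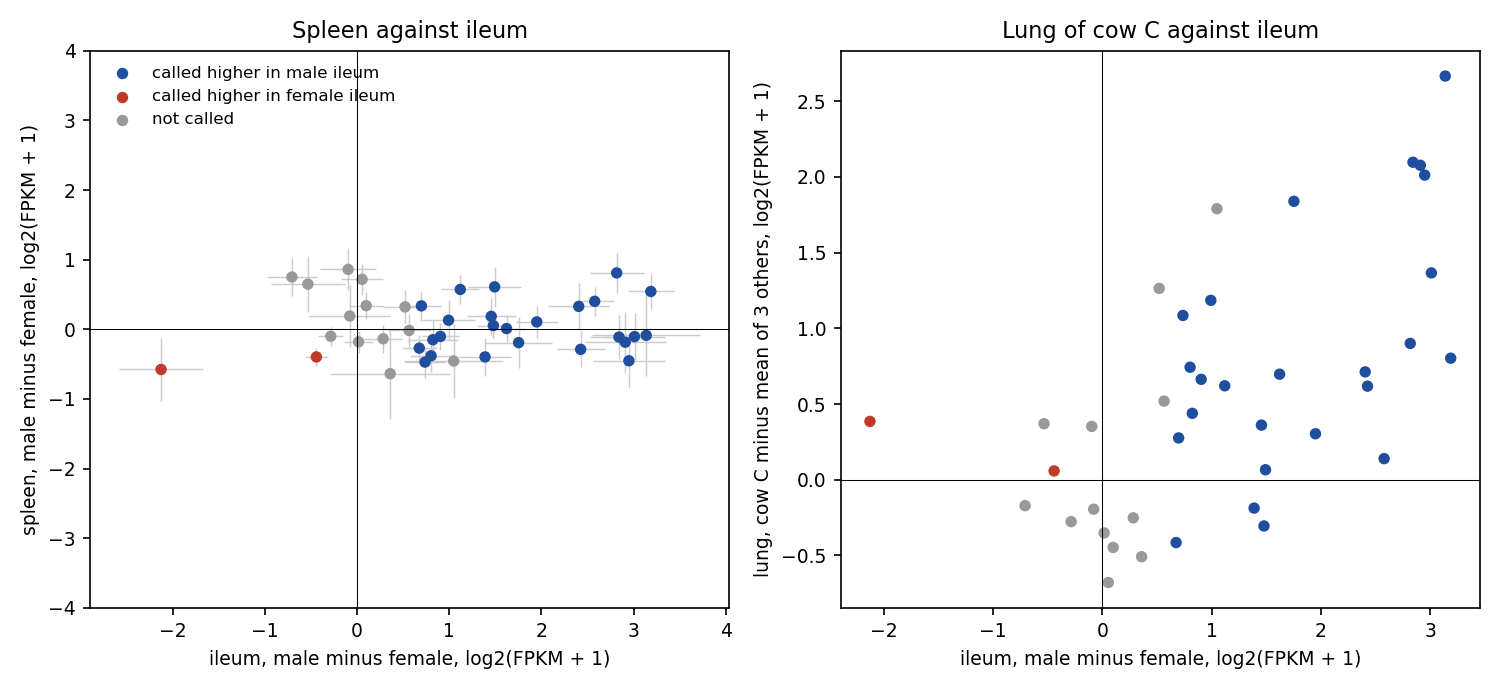
Each point is 1 member. The x axis of both panels is the male minus female difference in ileum on the log2(FPKM + 1) scale. The left panel sets it against the same difference in spleen (lines are SE), where the points show no slope (r = 0.0173), and the right panel against the excess of the lung of cow C over the mean of the other 3 lungs, where the points rise to the right (r = 0.601).

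Genes shared by only a pair of the 3 labels, found by the same limits, were few. There were 11 for ileum and spleen, 14 for spleen and lymphocyte and 5 for ileum and lymphocyte. In ileum 2 of the 11 were called higher in males and 1 lower (median 0.48), 2 of the 14 were higher and 1 lower (median -0.06), and 0 of the 5 were higher and 3 lower (median -0.38), where 15.3% of all genes tested were called higher and 9.02% lower. The counts of the first 2 of these groups lie near those shares. The 40 members, with 25 higher and 2 lower, had the largest median of these 4 groups. No test of the difference between the groups was made.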

How the data were processed

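Total RNA from cattle tissues was sequenced as paired reads of 150 bases, as the labels' protocols state. Trimmomatic 0.39, STAR, Cufflinks and the genome build UMD3.1 are listed without settings, per the submitters' processing notes. The authors deposited 1 table of FPKM values with 51 columns. Of these, 47 matched a sample and 4 matched none and were not used. Nothing states that any sample was pooled. Read depth is unknown, and only FPKM values were analysed.

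Label means of FPKM chose the members. The members and all lists were chosen with earlier results of these data known. Tests used log2(FPKM + 1), which understates changes of low genes, and the R package limma (version 3.58.1, R 4.3.3) with a variance trend and Benjamini-Hochberg adjustment over all genes that reached 1 FPKM in 2 or more libraries of the fit. The sex comparisons used the 40 libraries of the 10 tissues sampled in all 4 animals, with 1 mean per tissue and sex. Ileum against spleen, and lung against 7 other tissues, also needed a difference of at least 1. P-values of the sex comparisons rest on a spread pooled over 10 tissues of the same 4 animals. They do not measure the spread between animals in ileum alone. Over genes in the members' range, the median coefficient of variation was 24.8% in ileum and 14.3% in spleen. The other comparisons pooled the spread over the tissues of their own fit. The fits were tested on simulated data in which each gene had the same spread in every tissue and animals had no effect. Those data cannot show whether the p-values hold where ileum varies more than other tissues or where tissues share animals.

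Described members were the 10 with the highest levels, the 3 with the largest called differences per direction and test, and those next to the 4-fold limit. Others were added after their values were seen. Marker and pathway lists by gene symbol could not be applied, since 0 identifiers matched a name. No sequences or coordinates were used here.

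Same-numbered samples come from the same animal. Their deviations in ileum and spleen correlated with r = 0.196 (3770, male A), 0.0706 (3773, male B), 0.132 (3842, cow C) and 0.261 (3886, cow D) over 14194 genes. Ileum and spleen of different animals gave r from -0.1608 to 0.07015. The highest of these, the ileum of male A with the spleen of male B, was close to the value of male B itself, so that pair is not set apart. The lymphocyte library listed 59 genes at 0 that reached 1 FPKM in each of the other 46 libraries, so a 0 there may be a failed estimate. No member was at 0 in it.

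Alternatives were another pseudocount, no filter, quantile normalization, libraries rescaled to 1 sum, the animal as a block, fits of fewer tissues, leaving out each animal, and other limits of the rule.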

Additional observations from a re-analysis of the deposited data

Results flagged for a closer look

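Among 58 groups of 4 libraries (the members' mean level, and the levels in ileum, spleen and lung of the members described above), 10 had a library standing apart by Dixon's criterion. Chance gives about 1 in 20 for a single group. Most of these groups are members measured in the same libraries, so the count of 10 is not read against that rate. The lung of cow C accounted for 5 of the 10. Its levels were 78.12 FPKM in member 3, 12.45 in member 5, 19.14 in member 6, 7.071 in member 7 and 4.394 in member 10, each the highest of 4. Member 4 had 127.5 FPKM in the ileum of male A, above the rest, and 59.69 FPKM in the spleen of male B, below the rest. Member 37 had 9.949 FPKM in the ileum of cow D, and member 39 had 0.179 FPKM in the lung of male A. The members' mean log2 level was 1.086 in the liver of male A, above the 3 other livers.

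The male minus female difference was larger in ileum than in spleen in 20 members and smaller in 1, by a test of the difference itself (limma over 40 libraries), where 5.22% and 5.79% of all genes tested were called. ENSBTAG00000012498 had a difference between the organs of 2.644 on the log2 scale and ENSBTAG00000044204 of 3.224. In the fit of the ileum and spleen libraries alone 0 members were called, and the adjusted p of these genes was 0.07168 and 0.06523.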

How the results depend on the processing

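No member called in a comparison changed sign under any setting of the fits. The animal as a replicate block left every count of members as it was (25 and 2 in ileum, 20 and 1 between the organs), with a correlation within animals of 0.0384. A pseudocount of 0.1 gave 15 members higher and 1 lower in male ileum, 4 and 0 between the organs, and mean levels of 4.159 in spleen and 1.132 in lung. Quantile normalization gave 4 lower in male ileum and 13 higher in lung, where all genes then split into 2258 higher and 2195 lower, against 4157 and 1185. Ileum and spleen libraries alone gave 19 members higher and 0 lower in male ileum and 0 and 0 between the organs; all genes then gave 860 and 634 in ileum, 3 and 2 in spleen and 0 and 0 between the organs. The list of 113 genes made without the ileum libraries, 39 of them members, gave 48 higher and 7 lower.

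Leaving out 1 animal at a time, where the lone animal of a sex is assumed to vary like the other groups, gave 14 to 28 members higher and 0 to 3 lower in male ileum, 0 to 2 higher and 0 to 1 lower in male spleen, 6 to 22 and 0 to 4 between the organs, and 2 to 8 lower in ileum than in spleen. A fold limit of 3 gave 77 members and of 6 gave 10. Without male A, male B, cow C or cow D in turn, the rule found 26, 33, 58 and 54 genes, of which 26, 29, 38 and 35 were members. Depth is unknown, so low levels carry an error that could not be given. Over all genes, leaving out 1 animal gave 618 to 3701 calls higher and 450 to 1603 lower in male ileum (2517 and 1488 with all), 34 to 82 and 24 to 81 in male spleen (98 and 71), and 98 to 1373 and 117 to 1018 between the organs (861 and 956). Between the organs, all genes gave 404 and 506 with a pseudocount of 0.1 and 555 and 1134 with libraries rescaled to 1 sum. In spleen, 61 were higher with that pseudocount and 152 without the filter. The median over all genes went from 0.14 to 0.02 in male ileum under quantile normalization, and for ileum minus spleen from 0.06 to -0.14 under it and to 0.19 with rescaled libraries.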
